A study of Mus musculus with 743 samples.

Results

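Transcripts of 10 chromatin regulators were followed in single Schwann cells (SCs), the glia that ensheathe peripheral axons, from sciatic nerves of mice at postnatal day 1. The genes were chosen by name, with earlier results of these data known. They are the histone deacetylases Hdac1, Hdac2 and Hdac3, the Polycomb genes Ezh2, Eed and Suz12, the remodelling ATPases Chd4 and Smarca4, the DNA methyltransferase Dnmt1 and the histone demethylase Kdm6b. All 10 were found among the 25700 genes of the count table. Of 743 sequenced wells, 287 on plate 1 and 334 on plate 2 had at least 1500 detected genes and were used, and 122 were set aside. A cell was called cycling when Mki67 and Top2a together reached 50 CPM (reads per 1000000 reads of that cell), promyelinating when it was not cycling and Ncmap, a myelin gene, reached 50 CPM, and other when it met neither condition. This gave 53 and 57 cycling, 59 and 60 promyelinating and 175 and 217 other cells on plates 1 and 2.

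All cells came from 1 genotype, with no treatment. The mice carried P0Cre, which is driven by the promoter of the myelin protein zero gene and switches on the reporter ReYFP, and a DsRed transgene under a beta-actin promoter (βAct-DsRed). Only cells with eYFP were sorted, so SCs that had not recombined are not represented. Each plate was filled from its own suspension, in which a male and a female pup contributed equally, and is the replicate (n = 2), since cells of 1 plate share their mice. In sums over cells, fewer cells with a transcript and less transcript per cell cannot be told apart.

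Histone deacetylases remove acetyl groups from histone tails, which lowers transcription locally, and work in large complexes such as NuRD, Sin3 and CoREST. Polycomb repressive complex 2 (PRC2) places methyl groups on histone H3 at silenced genes, and KDM6B takes such groups off. In SCs, HDAC1 and HDAC2, the NuRD helicase CHD4, the SWI/SNF ATPase BRG1 (Smarca4) and PRC2 are all known to act in the passage from proliferating to myelinating cells, in part with the transcription factors SOX10 and EGR2.

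The classes carried the markers of their names. All 7 cycling markers that had not set the classes were over 2-fold higher in cycling than in other cells, and their summed level was 4773 and 4338 CPM against 90.3 and 87.2 CPM. Of 7 replication markers only 4 were. Their sums were 1144 and 1137 CPM in cycling, 159 and 150 CPM in promyelinating and 262 and 300 CPM in other cells. Of 10 promyelinating markers, 9 were over 2-fold higher in promyelinating cells. Endothelial, fibroblast, immune and mural lists summed to at most 56.8 CPM in any class and plate, with Cdh5, Kdr, Pdgfra, Ptprc, Tyrobp, Acta2 and Rgs5 at 0. The 3 classes differed in other ways: the median number of detected genes was 3425 and 3477 in cycling, 3690 and 3550 in promyelinating and 2775 and 2819 in other cells, and 8 dissociation response genes summed to 4726 and 7160, 2205 and 2418, and 5842 and 6380 CPM in the same order. Their part in the results below was not tested. The shares of cells with a read given below stand without the share over all genes, and other cells had the fewest detected genes. The 6 sums of cells by plate and class held 45073128 to 172878954 reads.

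Promoters of Ezh2, Suz12 and Dnmt1, the members with the largest fold changes between cycling and other cells, are shown first, since cell cycle genes are often held by E2F factors, whose binding letters can be searched for. In RefSeq (GRCm38.p6), promoter windows of 7 members were searched, from 250 bases before to 50 after an annotated start, with 10 windows in all. Hdac1, Hdac3 and Kdm6b had no entry. The E2F letters TTTCCCGC, TTTGGCGC, TTTGCCGC and TTTCGCGC, searched on both strands, lay in 3 windows, those of Ezh2, Suz12 and 1 of 3 starts of Dnmt1. They were in 2.26% of all 32851 RefSeq windows of this length. Capitals mark the matches.

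Ezh2, chr6:47594981-47595280, minus strand: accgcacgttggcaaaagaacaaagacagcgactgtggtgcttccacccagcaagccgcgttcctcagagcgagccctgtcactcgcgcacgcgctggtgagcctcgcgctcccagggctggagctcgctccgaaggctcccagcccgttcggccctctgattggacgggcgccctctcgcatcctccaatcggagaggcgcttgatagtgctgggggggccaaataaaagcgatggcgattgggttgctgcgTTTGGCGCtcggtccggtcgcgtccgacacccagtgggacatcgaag
Suz12, chr11:79992856-79993155, plus strand: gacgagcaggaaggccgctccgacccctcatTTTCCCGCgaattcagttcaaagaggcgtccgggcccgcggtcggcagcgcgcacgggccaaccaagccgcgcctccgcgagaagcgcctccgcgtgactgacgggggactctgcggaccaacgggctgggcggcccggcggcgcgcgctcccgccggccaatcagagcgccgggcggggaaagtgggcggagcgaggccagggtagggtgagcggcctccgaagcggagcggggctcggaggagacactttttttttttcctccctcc
Dnmt1, chr9:20952574-20952873, minus strand: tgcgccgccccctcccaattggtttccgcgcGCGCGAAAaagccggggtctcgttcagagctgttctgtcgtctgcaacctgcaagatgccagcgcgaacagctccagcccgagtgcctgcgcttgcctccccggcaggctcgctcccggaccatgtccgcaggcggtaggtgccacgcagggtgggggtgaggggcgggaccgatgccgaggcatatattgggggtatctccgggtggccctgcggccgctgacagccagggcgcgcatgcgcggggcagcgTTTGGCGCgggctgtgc

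The match in the Ezh2 window began 4 bases after the start, that of Suz12 219 bases before it, and the Dnmt1 window held matches 219 bases before and 34 after its start. Windows of Eed, Chd4, Hdac2 and Smarca4 held none of these letters. The same windows were searched for the cell cycle letters TTTGAA (CHR, in 17.9% of all windows) and CCAAT (in 37.4%). Ezh2 had 3 CCAAT boxes, Suz12 had both letters once, and Eed had TTTGAA at 2 places and CCAAT at 1. Each Chd4 window had 1 CCAAT box. The Dnmt1 windows had 3, 0 and 5 CCAAT boxes, and the last also had TTTGAA once. Hdac2 and Smarca4 had neither. A match is a description of the sequence, not a bound site, and no match says only that these letters are not in this window. The letters were chosen with the results of these data known.

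The class I deacetylases were present in every class. In the 3 comparisons 0 of 3 passed edgeR's test, where it called at most 3.82% of all genes higher and 2.11% lower. With calls this rare, 0 of 3 does not set them apart. Hdac1 (chr4:129516104-129542713, minus strand, GRCm38) had the highest mean level per length in every class. It was read at 290 and 219 CPM in cycling, 207 and 98.7 CPM in promyelinating and 336 and 225 CPM in other cells on plates 1 and 2. Promyelinating cells lay lowest on both plates and did not overlap with either other class. The difference from other cells was -0.80 ± 0.39 (log2 fold change ± SE), with an adjusted p of 0.502 by edgeR's quasi-likelihood test over all genes. Against promyelinating cells, cycling cells were at 0.79 ± 0.39 (edgeR adjusted p = 0.295), and 1 of 11 alternatives called Hdac1 there, limma on the mean over cells of log2(CPM + 1) (1.61 ± 0.37, adjusted p = 0.0132).

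Hdac2, the close paralogue of Hdac1 (chr10:36974544-37001889, plus strand), was read at 95.9 and 103 CPM in cycling, 131 and 52.4 CPM in promyelinating and 67.9 and 87.7 CPM in other cells. The promyelinating plates were the highest and the lowest of all 6 sums. Hdac3, the catalytic subunit of the NCoR complex, also spread widely in this class, at 21.8 and 95.6 CPM. It was at 103 and 82.5 CPM in cycling and 73.5 and 51.3 CPM in other cells. For both genes the promyelinating plates lay on either side of those of other cells, so no direction can be read there. At the level of cells, reads of both Hdac1 and Hdac2 were found in 39.2% ± 6.54 (SD over 2 plates) of cycling, 22.3% ± 5.10 of promyelinating and 21.7% ± 1.57 of other cells after thinning to 50000 reads, while 20.1% ± 1.29, 24.8% ± 1.51 and 28.2% ± 2.998 had neither.

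Hdac1 has near-identical copies in the mouse genome. The pseudogene Gm10093 matched 1444 of the 2038 bases of its longest transcript at 99.4% identity. It had reads in 180 cells, each of which also had Hdac1 reads, and took 0.396% of the reads of both together. Over all kept cells it was the only gene whose log2(CPM + 1), centred per plate, correlated with that of a member at 0.4 or more (Pearson r = 0.617, as a description over cells that share libraries). Next came Cks1b with Ezh2, at 0.343.

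**Figure D1:**
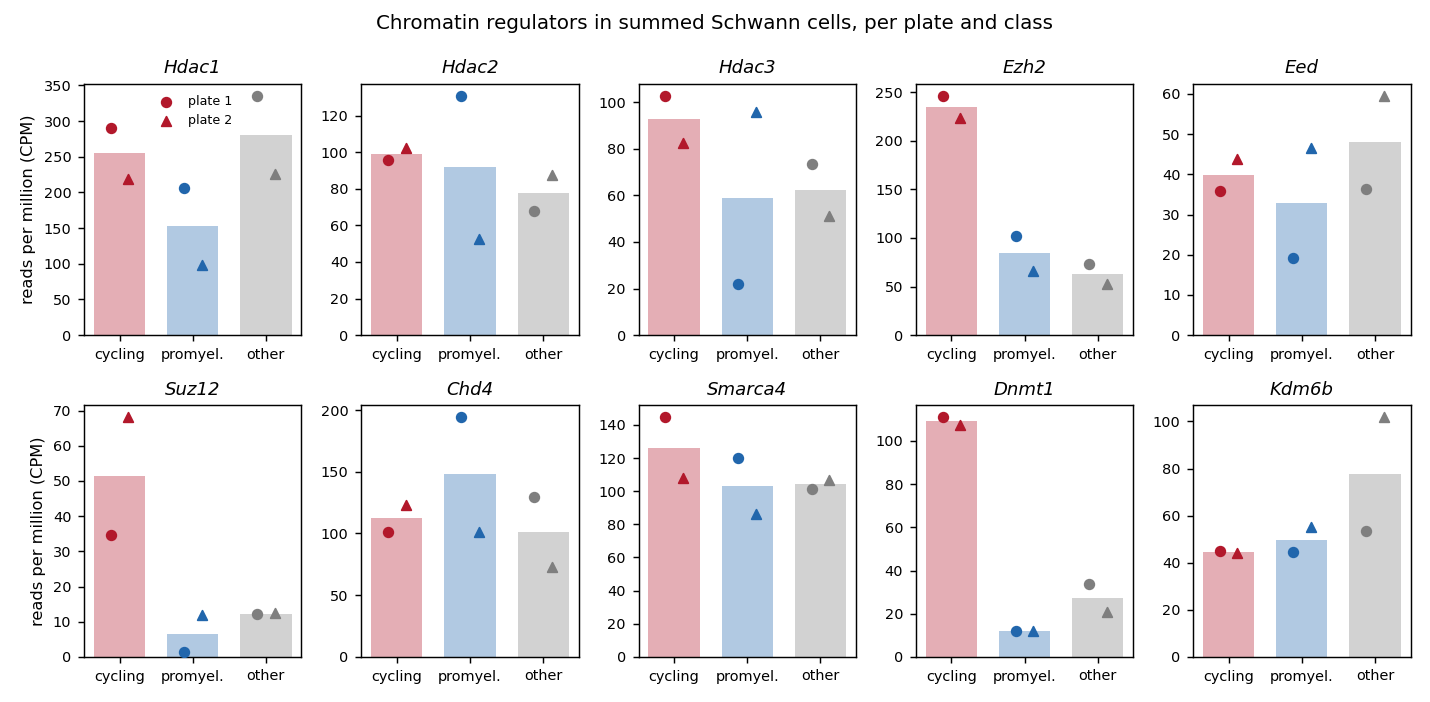
Normalized reads (CPM, vertical axis, linear from 0) of the 10 genes in cells summed by plate and class; circles are plate 1, triangles plate 2 and bars their mean. Ezh2 and Dnmt1 sat at 224 to 246 and 107 to 111 CPM in cycling cells, above every other sum, whereas the promyelinating plates of Hdac2 and Hdac3 lay far apart.

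Among the core PRC2 subunits, Ezh2, the methyltransferase (chr6:47530139-47595341, minus strand, GRCm38), was higher in cycling cells. It was read at 246 and 224 CPM in cycling, 102 and 66.0 CPM in promyelinating and 72.8 and 52.6 CPM in other cells. Both cycling plates lay above all other sums. The fold change was 4.10 over other cells (log2 2.04 ± 0.35, edgeR adjusted p = 0.0373) and 2.90 over promyelinating cells (log2 1.54 ± 0.34, edgeR adjusted p = 0.0362). Scaling by library size alone ended the call against other cells (edgeR adjusted p = 0.0515), and it held in the other 10 alternatives.

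More cells had Ezh2 reads and the positive cells had more of them. Reads were found in 38 of 53 and 41 of 57 cycling cells, 21 of 59 and 24 of 60 promyelinating cells, and 49 of 175 and 56 of 217 other cells. Thinned to 50000 reads, the shares were 67.0% ± 0.453, 33.3% ± 1.61 and 23.003% ± 1.01. The median count in positive cells was 238 and 74 reads in cycling against 125 and 68 reads in other cells, so this part of the gap was small on plate 2. The 3 highest cycling cells held 36.2% and 36.9% of the Ezh2 reads of their plate and class.

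Suz12, which holds the complex together (chr11:79993106-80034123, plus strand), was read at 34.6 and 68.1 CPM in cycling, 1.27 and 11.8 CPM in promyelinating and 12.1 and 12.4 CPM in other cells. Cycling cells were again highest on both plates. The log2 fold changes were large but poorly determined, at 2.19 ± 0.99 against other cells (edgeR adjusted p = 0.508) and 3.02 ± 1.02 against promyelinating cells (edgeR adjusted p = 0.145). A Suz12 read was found in 116 of the kept cells, and 3 of these held 26.5% of its reads. Within cycling cells, 3 cells held 60.4% of the Suz12 reads on plate 1 and 81.6% on plate 2. Without the filter on low counts, and with DESeq2, Suz12 passed against promyelinating cells (adjusted p = 0.0227 and 0.0156).

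Eed, the subunit that reads the methyl mark (chr7:89954654-89980983, minus strand), did not show this order in its summed level. Its levels were 35.9 and 43.7 CPM in cycling, 19.1 and 46.6 CPM in promyelinating and 36.3 and 59.6 CPM in other cells, and all 3 classes overlapped. The log2 difference between cycling and other cells was -0.13 ± 0.57. By thinned cells with a read, Eed was nevertheless higher in cycling cells on both plates, at 25.0% and 21.1% against 6.78% and 15.5% of promyelinating and 13.7% and 14.4% of other cells. Fewer genes were detected in other cells, so the gap from them cannot be called particular to Eed. Reads of at least 1 of Ezh2, Eed and Suz12 were found in 76.2% ± 1.05 of thinned cycling cells, 46.2% ± 10.2 of promyelinating and 39.7% ± 1.14 of other cells. Reads of all 3 together were rare, at 4.55% ± 1.00 of cycling cells, 1 of 215 other cells on plate 2 and 0 of 117 promyelinating cells, which allows a share of up to 2.56% taking 3 cells as the limit. The exact 95% upper bounds were 6.06% and 6.16% on the single plates. In counts this shallow an absent read does not show an absent transcript.

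Over the whole PRC2 list of 11 genes, 1 rose in cycling against other cells, 0 fell and 10 did not pass, where edgeR called 0.873% of all genes higher and 0.105% lower. The median log2 fold change was 0.47 beside -0.07 over all 13289 genes tested. Ezh1, the methyltransferase of resting cells, was low throughout. Corrected for exon length, Ezh2 stood at 87.5 ± 4.82 TPM (transcripts per 1000000 transcripts) and Ezh1 at 1.75 ± 0.425 TPM in cycling cells, and at 23.1 ± 4.92 and 4.71 ± 0.187 TPM in other cells. In every class and on both plates Ezh2 lay above Ezh1. The histone chaperones Rbbp4 and Rbbp7, shared by PRC2 and NuRD, did not pass the test.

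**Figure D2:**
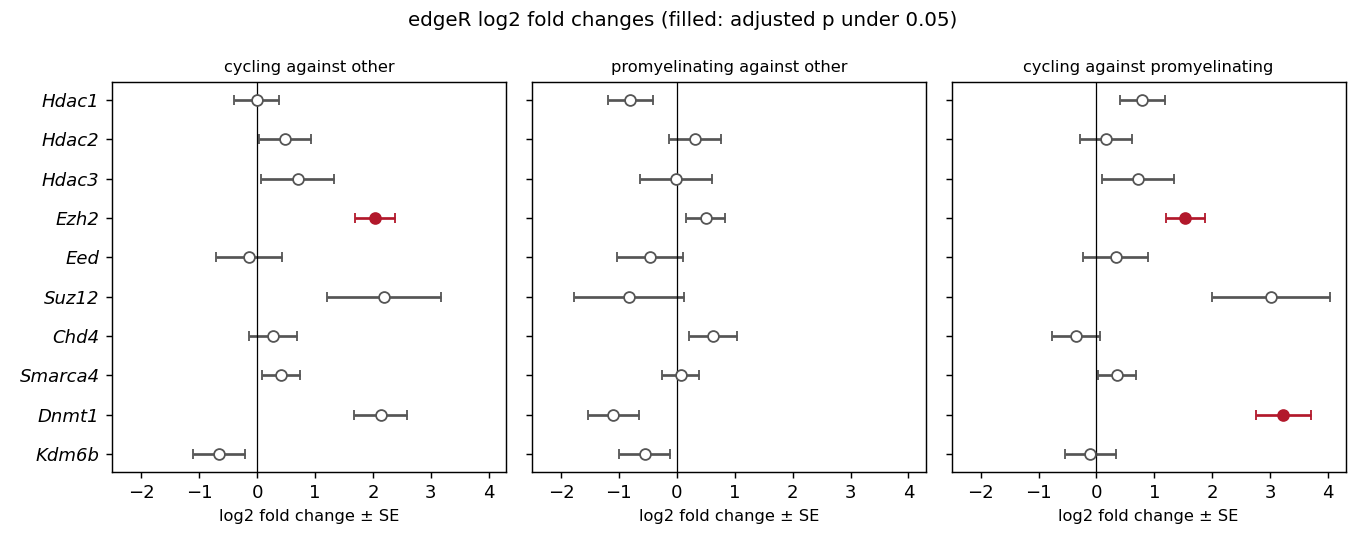
Log2 fold changes with their standard errors (horizontal axis) of the 10 genes from edgeR on the 6 sums, for the 3 comparisons of classes; filled symbols passed at an adjusted p under 0.05. Ezh2 passed in both comparisons of cycling cells (2.04 and 1.54) and Dnmt1 in that with promyelinating cells (3.23), while no gene passed in promyelinating against other cells.

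Dnmt1, which copies DNA methylation onto newly made strands (chr9:20907209-20959888, minus strand), had the sharpest contrast between cycling and promyelinating cells. It was read at 111 and 107 CPM in cycling, 12.03 and 12.1 CPM in promyelinating and 33.6 and 20.6 CPM in other cells. The 3 classes did not overlap. Cycling cells were 9.37-fold higher than promyelinating cells (log2 3.23 ± 0.48, edgeR adjusted p = 0.00613). Against other cells the difference was 4.39-fold and did not pass (log2 2.13 ± 0.46, edgeR adjusted p = 0.0978), although 3 of 11 alternatives called it, with adjusted p from 8.67e-05 to 0.244 over all of them.

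Only a minority of cycling cells had Dnmt1 reads, with 21 of 53 and 23 of 57. Promyelinating cells with reads numbered 7 of 59 and 5 of 60, and other cells 26 of 175 and 20 of 217. The 3 highest cells held 49.8% and 39.0% of the Dnmt1 reads in cycling cells and 84.2% and 99.1% in promyelinating cells. Uhrf1, the partner that guides DNMT1 to replicated DNA, was at 55.1 and 77.0 CPM in cycling and 16.3 and 6.21 CPM in other cells. In promyelinating cells it had 0 reads on both plates. Uhrf1 passed as lower there than in other cells (edgeR adjusted p = 0.00546). With 3 reads per library put in place of 0, other cells were 195-fold higher, and 283-fold on plate 1 and 108-fold on plate 2 alone. These folds are not lower limits, since reads had no molecular identifiers and a positive cell can add far more than 3. For Dnmt1 the median count in positive cells was 106.5 reads. By contrast Dnmt3a, which sets new methyl marks, stood at 18.4 ± 2.71 TPM in other, 11.4 ± 2.47 TPM in cycling and 12.7 ± 2.55 TPM in promyelinating cells and did not pass any of the 3 tests. In cycling cells Dnmt1 (36.8 ± 0.349 TPM) lay above Dnmt3a and in the other 2 classes below it, on both plates.

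**Figure D3:**
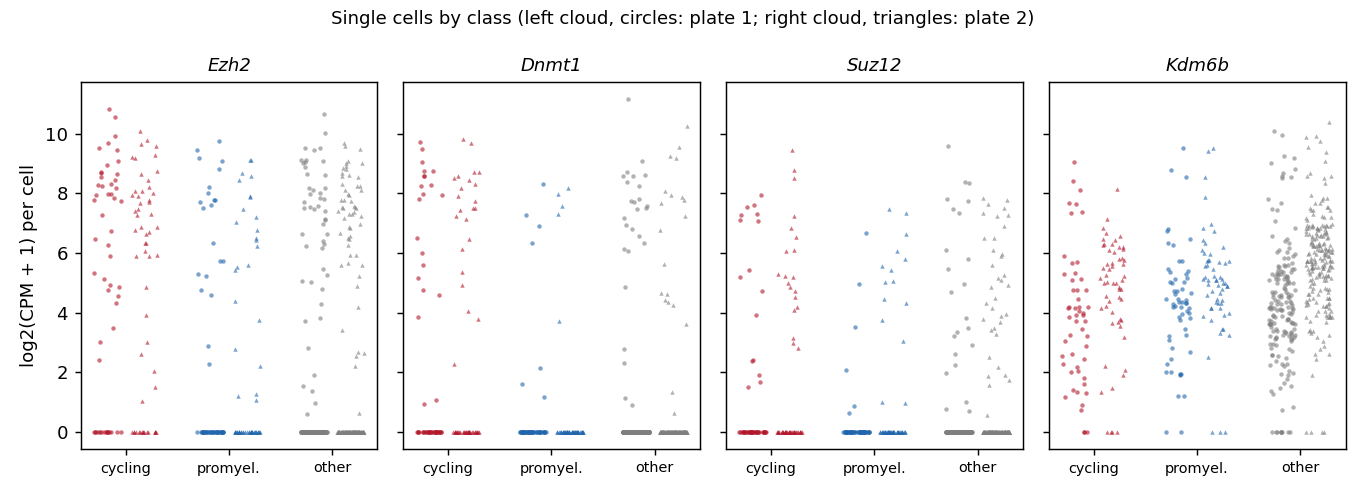
Log2(CPM + 1) per cell (vertical axis) of Ezh2, Dnmt1, Suz12 and Kdm6b in cycling, promyelinating and other cells; each point is a cell, circles on the left are plate 1 and triangles on the right plate 2. Ezh2, Dnmt1 and Suz12 were at 0 in most cells, with reads in 229, 102 and 116 cells, while Kdm6b had reads in 596.

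Neither remodelling ATPase passed edgeR's test in any comparison of the 3 classes. The test called at most 3.82% of all genes higher and 2.11% lower in these, so this does not set them apart. Chd4, the motor of NuRD (chr6:125095981-125130591, plus strand), was read at 101 and 123 CPM in cycling, 194 and 102 CPM in promyelinating and 129 and 72.5 CPM in other cells. On each plate promyelinating cells exceeded other cells, but the groups overlapped because plate 1 was higher in both. The log2 difference was 0.62 ± 0.42 (edgeR adjusted p = 0.671). Reads of Chd4 were found in 56 of 59 and 53 of 60 promyelinating cells, which after thinning was 80.3% ± 6.28 against 59.4% ± 6.45 of other cells and 66.4% ± 9.49 of cycling cells. Fewer genes were detected in other cells, and shares over all genes were not computed. The gap from other cells therefore cannot be called particular to Chd4.

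Smarca4, the BRG1 ATPase of SWI/SNF (chr9:21616169-21704230, plus strand), was read at 145 and 108 CPM in cycling, 120 and 85.9 CPM in promyelinating and 101 and 107 CPM in other cells. Its largest log2 difference among the 3 comparisons was 0.42 ± 0.33 (cycling against other). The share of thinned cells with a read was 43.0% ± 3.70 in cycling, 51.3% ± 1.80 in promyelinating and 33.5% ± 1.95 in other cells. The limit named for Chd4 applies to these shares too. With limma on the mean over cells of log2(CPM + 1), Smarca4 passed in promyelinating against other cells (1.30 ± 0.36, adjusted p = 0.0485). In that fit 82.3% of all calls in this comparison were higher in promyelinating cells. Smarca2, the alternative ATPase BRM, was far lower per length, at 3.40 ± 3.15, 3.37 ± 0.361 and 8.63 ± 1.37 TPM against 48.5 ± 9.25, 38.6 ± 8.88 and 39.6 ± 2.17 TPM of Smarca4 in cycling, promyelinating and other cells.

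Of 26 SWI/SNF genes 24 were tested, and of 12 NuRD genes 11. In cycling against other cells, and in promyelinating against other cells, 0 of these passed. Over all genes, edgeR called 0.873% and 0.489% higher and 0.105% and 1.29% lower in these comparisons. Their median log2 fold changes were 0.01 and 0.27 in the former and -0.03 and -0.03 in the latter. Brd9, a bromodomain subunit of SWI/SNF, was at 83.3 ± 22.8 CPM in cycling and 37.5 ± 4.98 CPM in other cells (edgeR adjusted p = 0.402).

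Kdm6b (chr11:69398508-69413675, minus strand) had few reads in nearly every cell. It was read in 596 of the kept cells (96.0%), against 461 for Chd4, the next of the members, yet its median count in positive cells was 19 reads, against 128 reads for Hdac1. Of the 889 genes within 1.2-fold of its CPM over all cells, 7 including itself were read in as many cells, and the median gene was read in 32.7%. Its levels were 45.1 and 44.2 CPM in cycling, 44.4 and 55.2 CPM in promyelinating and 53.3 and 102 CPM in other cells.

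Other cells lay above cycling cells on both plates, but plate 2 made most of the gap, and the test did not pass (edgeR log2 fold change -0.66 ± 0.44, adjusted p = 0.676). Plates differed within a class too. After thinning, 53.7% of other cells on plate 1 and 81.4% on plate 2 had a read, a larger gap than between any classes of 1 plate. An antisense gene, Kdm6bos, overlaps its exons and is not among the counted genes. The longest stretch it shares with the longest Kdm6b transcript was 152 of 6654 bases. No source says whether counting used strand, so reads of the pair cannot be told apart within the overlap. Antisense genes also overlap exons of Ezh2, Eed and Suz12. The longest shared stretch was 261 of 2067 bases for Eed and 180 of 4373 bases for Suz12. Kdm6a, the X-linked demethylase of the same family, stood at 3.07 to 4.27 TPM in the class means, below Kdm6b (15.96 to 27.6 TPM).

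**Figure D4:**
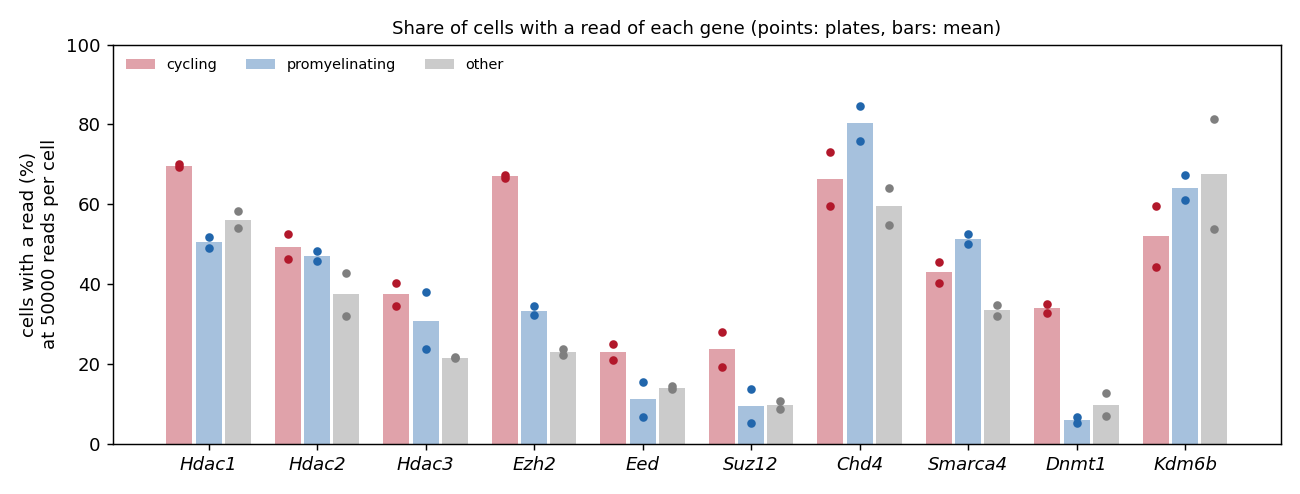
Share of cells with at least 1 read (vertical axis, percent) at 50000 reads per cell, for the 10 genes in the 3 classes; points are plates and bars their mean. Ezh2 stood at 67.0% in cycling against 23.003% in other cells, and Chd4 was highest in promyelinating cells at 80.3%.

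Across the members, 1 of 10 rose in cycling against other cells and 0 fell, where edgeR called 0.873% of all genes higher and 0.105% lower. With DESeq2, 811 genes passed in place of 130, and the share of calls that were higher dropped from 89.2% to 54.9%. The 2 plates of cycling cells lay entirely above those of other cells for 6 members (Hdac2, Hdac3, Ezh2, Suz12, Smarca4 and Dnmt1) and entirely below for Kdm6b, against 14.9% and 28.7% of all genes. The median log2 fold change of the members was 0.45 beside -0.07 over all genes.

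In promyelinating against other cells, 0 of 10 passed in either direction, where edgeR called 0.489% of genes higher and 1.29% lower. At an unadjusted p under 0.05 the count was 1 member, Dnmt1, and 1483 of 13289 genes. With DESeq2 0 members and 1015 genes passed. Plates did not overlap for 0 members on the higher side and for 3 (Hdac1, Suz12 and Dnmt1) on the lower, beside 16.4% and 28.1% of all genes.

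In cycling against promyelinating cells, 2 of 10 rose and 0 fell, where edgeR called 3.82% higher and 2.11% lower. Plates did not overlap for 4 members on the higher side (Hdac1, Ezh2, Suz12 and Dnmt1) and for 0 on the lower, beside 23.1% and 24.6% of all genes. These comparisons share their classes, so they are not independent of each other.

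Levels between members were compared per length only. Over all annotated exons, the order of mean TPM in cycling cells was Hdac1 (184 ± 33.6), Ezh2 (87.5 ± 4.82), Hdac3 (56.8 ± 8.06), Hdac2 (55.2 ± 3.39), Smarca4 (48.5 ± 9.25), Dnmt1 (36.8 ± 0.349), Chd4 (34.8 ± 5.24), Suz12 (25.9 ± 12.3), Eed (25.9 ± 3.93) and Kdm6b (15.96 ± 0.0194). Hdac1 and Ezh2 stood apart from their neighbours on both plates, whereas Hdac3, Hdac2 and Smarca4 overlapped, as did Chd4 with both Dnmt1 and Suz12. In other cells Hdac1 again led (200 ± 52.8) and Dnmt1 (9.04 ± 2.93) and Suz12 (6.09 ± 0.198) came last on both plates, while Ezh2 (23.1 ± 4.92) overlapped with Eed, Chd4 and Kdm6b. In promyelinating cells Hdac1 was first by mean (107 ± 53.2) but overlapped with Hdac2, and Dnmt1 (3.97 ± 0.0481) and Suz12 (3.22 ± 3.68) were last. The order in between depended on the length used. By the longest transcript, which for Ezh2 is 2787 bases against 6678 bases of exons, Ezh2 stood at 42.7 ± 9.09 TPM in other cells, above the means of Hdac3, Smarca4, Chd4 and Kdm6b. By that length Eed (36.9 ± 5.62) came before Dnmt1 (35.6 ± 0.318) and Chd4 (32.1 ± 4.84) in cycling cells, and Hdac2 (58.5 ± 3.62) before Hdac3 (49.5 ± 6.98).

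**Figure D5:**
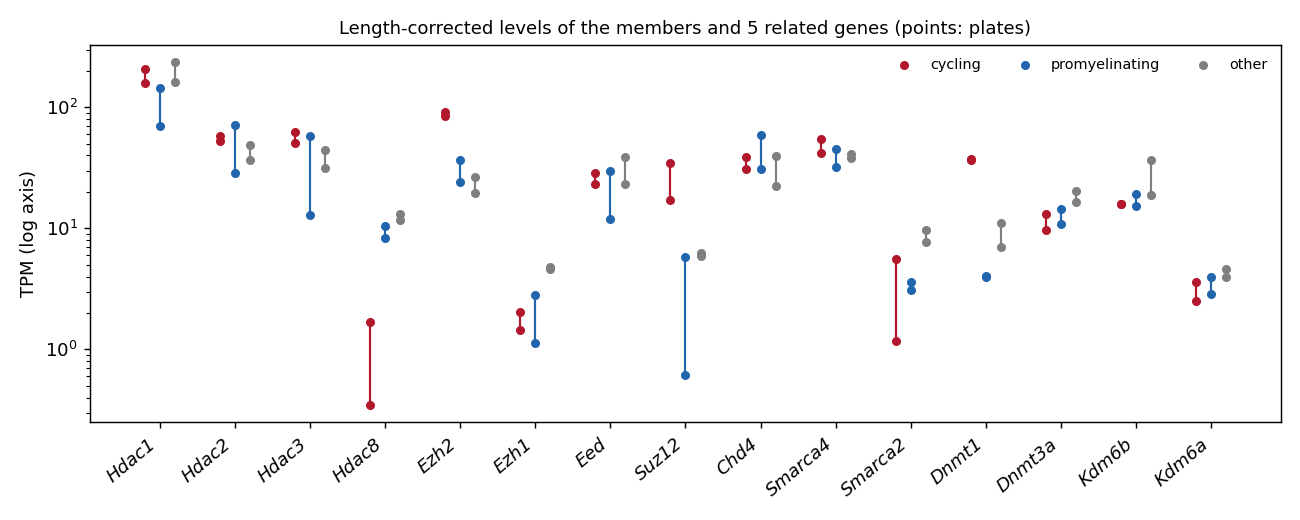
Levels per length (TPM, vertical log axis) over all exons of the members and of 5 related genes in the 3 classes; points are plates joined by a line. Ezh2 lay above Ezh1, Smarca4 above Smarca2 and Kdm6b above Kdm6a in every class, and the order of Dnmt1 and Dnmt3a differed between cycling cells (36.8 against 11.4 TPM) and the other classes.

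Splitting the cycling cells gave little further resolution. Cells with at least 50 CPM of Ccnb1, Cdc20 and Plk1 together were called mitotic, 47 on each plate, which left 6 and 10 cycling cells that were not. In this comparison 0 of 10 members and 0 of 13297 genes passed edgeR (0% higher and 0% lower), with 1 member and 2327 genes at an unadjusted p under 0.05, and DESeq2 called 1 member and 2329 genes. The member was Smarca4, at 157 and 127 CPM in mitotic against 4.19 and 34.0 CPM in the few remaining cells (log2 2.99 ± 0.91, edgeR adjusted p = 0.146). Ezh2 was lower in mitotic cells on both plates, at 229 and 198 CPM against 443 and 323 CPM (log2 -0.71 ± 0.39, edgeR adjusted p = 0.397). Kdm6b, Hdac2 and Hdac3 were higher in mitotic cells on both plates without passing, with log2 fold changes of 1.48 ± 0.77, 1.43 ± 1.06 and 1.15 ± 0.81. The median of all genes in this comparison was itself 0.52.

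Other cells were divided by Atf3, a stress response gene, at 50 CPM into 49 and 67 positive and 126 and 150 negative cells. Here 0 members passed, where edgeR called 0% of 13413 genes higher and 0.0298% lower, and DESeq2 called 0 members and 255 genes. At an unadjusted p under 0.05 there were 0 members and 668 genes. Ezh2 was at 64.1 and 67.8 CPM in Atf3-positive and 75.9 and 46.4 CPM in Atf3-negative cells. Dnmt1 was at 37.6 and 15.99 CPM against 32.2 and 22.5 CPM. Neither gene differed in the same direction on both plates. Plates did not overlap for 2 members on the higher side, Hdac3 (84.4 and 78.2 against 69.7 and 40.4 CPM) and Suz12 (12.7 and 22.7 against 11.8 and 8.13 CPM). Smarca4 was the 1 on the lower side (93.6 and 80.9 against 104 and 118 CPM). The share of such genes over all genes was not computed for this split. The other 7 overlapped, Kdm6b among them (52.8 and 121 against 53.4 and 93.8 CPM).

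A wider set of chromatin genes, with partner factors and Polycomb target genes, was tested in the same way. Of 147 genes in 15 lists, 137 were tested, and 1 (Ezh2) rose and 0 fell in cycling against other cells. Over all genes, edgeR called 0.873% higher and 0.105% lower there. The median log2 fold change was 0.07 beside -0.07 over all genes. In promyelinating against other cells 0 rose and 2 fell, where edgeR called 0.489% of all genes higher and 1.29% lower. The 2 were Uhrf1 and Hdac4, a deacetylase that shuttles between nucleus and cytoplasm. Hdac4 was at 74.5 ± 31.2 CPM in promyelinating and 314 ± 31.9 CPM in other cells (log2 -2.00 ± 0.33, edgeR adjusted p = 0.0198). The median was -0.18 beside -0.07.

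By list, 0 of 4 class I deacetylases, 6 sirtuins, 14 Sin3, CoREST and NCoR subunits, 18 PRC1 subunits and 9 histone acetyltransferases passed in either comparison with other cells. Over all genes, edgeR called 0.873% and 0.489% higher and 0.105% and 1.29% lower in these comparisons. With calls this rare, 0 in a list of this size does not set it apart. Hdac8, the X-linked class I deacetylase, was at 1.98 ± 1.85 CPM in cycling and 24.4 ± 2.47 CPM in other cells (log2 -3.47 ± 1.01, edgeR adjusted p = 0.248), and was read in 7.73% of cells. Gps2, a subunit of the NCoR complex, was at 106 ± 12.6 CPM in cycling and 49.9 ± 9.89 CPM in other cells (edgeR adjusted p = 0.248). Sirt2, a deacetylase of tubulin and histones, was at 234 ± 1.04 CPM in promyelinating and 128 ± 2.30 CPM in other cells (edgeR adjusted p = 0.320). Of 17 other remodellers 16 were tested and 0 passed against other cells. Baz1b, a subunit of ISWI complexes, was at 152 ± 14.5 CPM in cycling and 53.9 ± 39.6 CPM in other cells (edgeR adjusted p = 0.361). The 11 DNA methylation genes had a median log2 fold change of 0.45 in cycling against other and -0.79 in promyelinating against other cells. The latter includes Uhrf1, whose place at the bottom is the same with 3 reads per library put in place of 0.

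Partners known from SCs were measured in the same sums. Egr2, the driver of myelin genes, was at 320 ± 17.96 CPM in promyelinating and 139 ± 10.8 CPM in other cells (edgeR adjusted p = 0.0807). Nab2, its corepressor that recruits CHD4, was at 54.3 ± 3.40 and 30.3 ± 2.54 CPM (edgeR adjusted p = 0.608). Yy1, a zinc finger factor, was at 113 ± 4.51 CPM in cycling and 39.8 ± 0.436 CPM in other cells (edgeR adjusted p = 0.095). Of 7 Polycomb target genes 2 were tested, and 0 passed in any comparison. At most 3.82% of all genes were called higher and 2.11% lower by edgeR, so this does not set them apart.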

How the data were processed

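Single sorted SCs were sequenced with Smart-seq2 on 2 plates. The authors aligned with STAR and used featureCounts for gene counts. The submitters' processing notes name STAR 2.6.1c and GRCm38.p5, whereas the methods name another STAR version for these plates and a human assembly, and every gene ID in the table is a mouse ID. The table the authors deposited holds unnormalized counts for each gene in each well, without molecular identifiers. The use of strand is not given in the sources used here. Symbols, positions and exon lengths came from GENCODE M21 (25587 of 25700 IDs matched). Kept cells had 26673 to 2291613 reads.

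Cells of a class were added up within each plate, and edgeR 4.0.16 was run on these sums (TMM, filterByExpr, robust glmQLFit, glmQLFTest) in R 4.3.3, with no plate term. Mki67, Top2a, Ncmap and the genes that set a split were left out before Benjamini-Hochberg adjustment over all genes tested. Each SE was derived from the fold change and its F statistic. CPM was computed per sum and TPM from exon lengths. The study compared clusters cell by cell, so its test was not taken over. Intervals are exact 95% binomial ones over cells or wells taken as independent, so they leave out the spread between plates. The limit for a count of 0 was taken as 3 counts of the total, which is lower than the exact upper bound printed beside it. Thinning to 50000 reads left out 5 cells. Alternatives were DESeq2 1.42.0, limma 3.58.1, other scaling, filters, class thresholds and depth, the plate as a block and each plate alone. The limma fit on mean log2(CPM + 1) per cell was added after seeing the data. The deviations of plates correlated between classes over 3705 genes (r = 0.135, 0.228 and 0.189), and sums of 1 plate come from the same mice, so plates pair the sums. In simulated data for cycling against other with 12978 genes, edgeR recovered 63 of 100 genes changed 4-fold and 93 of 100 changed 16-fold. Of 161 calls, 5 were unchanged genes. Counts were drawn with edgeR's own dispersions and no pairing of plates, and low genes were never changed. The simulation therefore cannot show how edgeR does on sums led by a few cells.

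The members, lists and tests were chosen with earlier results of these data known. Named genes were the members and, per list and for the first 2 comparisons, up to 3 genes that passed (at least 10 CPM, same direction on both plates, largest fold change) or, where none did, up to 2 of at least 20 CPM. Other genes are named with values after these were seen. In the likeness over cells, 5248 genes read in at least 20% of cells were compared. Classes were set by marker genes and no doublet caller was run.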

Additional observations from a re-analysis of the deposited data

Results flagged for a closer look

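Reads of members also appeared in the 122 wells set aside for having fewer than 1500 detected genes, which entered no comparison and had a median of 5685 reads. Kdm6b was read in 34 of them (27.9%, exact 95% binomial interval 20.1% to 36.7%), Chd4 in 17, Hdac1 in 12, Hdac2 in 8, Smarca4 in 6, Ezh2 in 5, Suz12 in 4 and Dnmt1 in 4. Eed was read in 3 wells and Hdac3 in 0, which allows a share of up to 2.46% taking 3 wells as the limit, or 2.98% by the exact interval. What these wells held was not tested.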

How the results depend on the processing

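With 2 plates, p-values rest on a spread between plates that is shared over classes. Each plate has its own pool of mice, so mice and plate cannot be told apart in it. The count of members called in cycling against other cells was 1, and it became 2 with DESeq2, without the filter on low counts and with limma on the mean over cells of log2(CPM + 1) (the last chosen after seeing the data), and 0 with library size only. That limma fit also called 1 member (Smarca4) in promyelinating against other cells, and DESeq2 called 1 in mitotic against not mitotic cells, in both of which edgeR called 0. In cycling against promyelinating cells 2 members were called, and 3 with DESeq2 and without the filter (Suz12 added) and with that limma fit (Hdac1 added). The plate as a replicate block changed no call of a member. With 1 plate left no test was possible, and the log2 ratio of Ezh2 in cycling against other cells was 1.76 to 2.09, and that of Dnmt1 in cycling against promyelinating cells 3.15 to 3.21. The causes were not tested. Several members that did not pass changed sign. In cycling against other cells Hdac1 went to 0.037 (DESeq2), 0.010 (block), 0.041 (limma on mean CPM), 0.94 (limma on mean log2) and 0.16 (thinned), Eed to 0.11 and 0.58 (both limma fits), 0.29 (thinned) and 0.089 (at least 2500 genes), and Chd4 to -0.019 (limma on mean CPM) and -0.034 (at least 2500 genes). In promyelinating against other cells Hdac3 went to 0.033 (DESeq2), 0.55 (limma on mean log2), 0.12 (thinned), 0.022 (at least 1000 genes) and 0.15 (threshold 100 CPM), Eed to 0.10 (at least 1000 genes), Suz12 to 0.047 (limma on mean log2) and Smarca4 to -0.014 (library size only). In cycling against promyelinating cells Eed went to -0.22 (at least 1000 genes), Smarca4 to -0.36 (limma on mean log2) and -0.053 (thinned) and Kdm6b to 0.063 (threshold 20 CPM). Hdac2 went to -0.12 in mitotic cells (threshold 100 CPM) and Smarca4 to 0.20 in Atf3-positive cells (limma on mean log2). Genes called in the 3 comparisons of classes numbered 130, 237 and 788 with edgeR, 811, 1015 and 2310 with DESeq2, 316, 521 and 1288 without the filter, 230, 378 and 1340 with limma on mean CPM, 738, 1200 and 2507 with limma on mean log2 and 238, 392 and 1122 after thinning. Of the limma calls on mean log2, 82.3% were higher in promyelinating than other cells against 27.4% with edgeR, and 48.2% were higher in cycling than promyelinating cells against 64.3%. Without the filter 71.5% were higher in cycling than other cells against 89.2%. In the mitotic split the counts were 0 with edgeR, 2329 with DESeq2, 143 without the filter, 627 and 169 with the limma fits, and in the Atf3 split 4, 255, 97, 2 and 14, with 7 after thinning, 2 with library size only, 1 and 0 with at least 1000 and 2500 genes and 1 at threshold 100 CPM. Library size alone moved the median of all genes in cycling against other cells from -0.07 to -0.20, and the mitotic median of 0.52 ranged from 0.12 (limma on mean log2) to 0.74 (block).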

Other observations

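Genes outside the members, named after their values were seen, passed the test between cycling and promyelinating cells. Of 137 tested genes of the wider set, 5 rose and 3 fell. That set also holds Polycomb target genes and partner factors such as Egr2. Over all genes, edgeR called 3.82% higher and 2.11% lower in this comparison. Counts of this size therefore do not set these genes apart from all genes. Besides Ezh2, Dnmt1 and Uhrf1, the class IIa deacetylases Hdac4 and Hdac7 rose (log2 fold change 1.36 and 4.62, edgeR adjusted p = 0.0454 and 0.0260). Hdac7 was at 40.5 and 18.1 CPM in cycling against 1.32 and 1.17 CPM in promyelinating cells. The falls were Baz1a, a subunit of ISWI remodellers (log2 -2.58, edgeR adjusted p = 0.0193), the acetyltransferase Kat5 (log2 -2.03, edgeR adjusted p = 0.0389) and Egr2 (log2 -2.01, edgeR adjusted p = 0.00567). Baz1a was at 17.99 and 14.3 CPM in cycling and 115 and 86.6 CPM in promyelinating cells, and Kat5 at 16.4 and 20.7 against 92.7 and 63.5 CPM. For each of these genes the plates of the 2 classes did not overlap.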
